A study of Mus musculus with 32 samples.

Results

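Brain and heart are excitable organs, whose neurons and cardiomyocytes fire action potentials, and kidney and liver are epithelial organs, whose tubule cells and hepatocytes transport and convert metabolites. RNA polymerase II (Pol II) on genes was compared between the 4 profiles of brain and heart and the 4 profiles of kidney and liver, which together make up the whole table of 8 profiles. A gene was reported only when it passed the test and its lowest value on one side lay above its highest value on the other, so that neither organ of a pair carried the difference alone. Of 26758 tested genes, 13 were higher and 32 were lower in brain and heart under this rule, 45 in all. The test itself called 0.0486% of tested genes higher and 0.12% lower, and every gene it called also met the rule on non-overlap, which therefore removed none.

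The tissue came from mice whose strain, age and sex are not given in the labels. Each organ was studied as FFPE tissue (fixed in 10% formalin and embedded in paraffin, then heated at 95 °C for 20 min to release chromatin) and as flash-frozen tissue (cores crosslinked with 1% formaldehyde for 30 min). The groups were FFPE brain, FFPE heart, frozen brain and frozen heart, set against FFPE kidney, FFPE liver, frozen kidney and frozen liver, all enriched by an antibody to the Pol II C-terminal domain. The labels list 2 Pol II libraries for each group, but the table has a single column per group without a replicate number, called a profile here, and no source used here says whether a column combines both libraries. Nothing states that profiles came from different animals. The p-values therefore cover only the spread among these profiles, and each side holds only 2 organs.

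The deposited values are log2 read counts per gene after 0.5 reads were added and the totals scaled. Profiles held 864816 to 2178329 reads in genes, and mitochondrial genes took 7.73% to 25.6% of them, the highest shares being 25.6% in FFPE heart and 19.2% in FFPE kidney, 1 on each side. The organ labels were checked against cell type markers. Of the hepatocyte genes, 13 of 13 were highest in liver in both preservations, of the cardiomyocyte genes 14 of 15 in heart, of the neuronal genes 14 of 15 in brain and of the proximal tubule genes 10 of 11 in kidney. Most such markers overlapped between the sides, and the other organ of the pair stood low. The cardiac myosin heavy chain Myh6 had 10.77 in FFPE heart and 11.90 in frozen heart but 5.90 and 5.41 in FFPE and frozen brain, against 4.94 to 5.61 in the 4 kidney and liver profiles. In bulk tissue, fewer cells of a type and less Pol II per cell cannot be told apart.

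Pol II density over a gene broadly follows how often the gene is transcribed but is not a direct measure of it. Proximal tubule cells of the kidney and hepatocytes of the liver share a metabolic programme that includes glucose synthesis, detoxification and amino acid breakdown, and both use nuclear receptors as transcription factors. Neurons and cardiomyocytes share calcium release channels, membrane-anchoring ankyrins and an elongation factor isoform typical of cells that no longer divide.

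Promoter windows of RefSeq (GRCm38.p6), each with 250 bases before and 50 after an annotated start, were found for 7 of the 13 genes higher and 25 of the 32 genes lower in brain and heart. They are shown here for Eef1a2, Pck1 and G6pc, which are described first among the genes higher and lower. Windows of Inka2 and Sult1d1, which held a match to the loose MEF2 pattern described below, are also shown. Inka2 has a second annotated start, whose window held none of the searched motifs and is not shown. Capitals mark the annotated start base and any motif match.
Eef1a2, chr2:181156966-181157265, minus strand: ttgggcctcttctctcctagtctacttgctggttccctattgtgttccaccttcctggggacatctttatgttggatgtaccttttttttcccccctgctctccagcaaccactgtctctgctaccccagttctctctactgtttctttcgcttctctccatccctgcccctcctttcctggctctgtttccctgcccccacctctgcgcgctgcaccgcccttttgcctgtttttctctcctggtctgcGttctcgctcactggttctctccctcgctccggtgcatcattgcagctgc
Inka2, chr3:105704349-105704648, plus strand: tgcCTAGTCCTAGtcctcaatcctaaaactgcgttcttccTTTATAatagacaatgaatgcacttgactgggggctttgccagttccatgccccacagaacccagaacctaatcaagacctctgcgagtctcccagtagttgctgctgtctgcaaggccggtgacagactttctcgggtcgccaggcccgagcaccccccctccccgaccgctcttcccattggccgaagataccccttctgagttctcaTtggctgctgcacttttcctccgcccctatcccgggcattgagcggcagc
Pck1, chr2:173152823-173153122, plus strand: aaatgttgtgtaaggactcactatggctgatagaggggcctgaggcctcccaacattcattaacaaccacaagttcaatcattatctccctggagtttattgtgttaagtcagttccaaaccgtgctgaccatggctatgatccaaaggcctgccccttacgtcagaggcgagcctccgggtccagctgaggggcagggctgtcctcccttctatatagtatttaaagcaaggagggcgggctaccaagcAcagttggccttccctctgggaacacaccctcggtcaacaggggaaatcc
G6pc, chr11:101367466-101367765, plus strand: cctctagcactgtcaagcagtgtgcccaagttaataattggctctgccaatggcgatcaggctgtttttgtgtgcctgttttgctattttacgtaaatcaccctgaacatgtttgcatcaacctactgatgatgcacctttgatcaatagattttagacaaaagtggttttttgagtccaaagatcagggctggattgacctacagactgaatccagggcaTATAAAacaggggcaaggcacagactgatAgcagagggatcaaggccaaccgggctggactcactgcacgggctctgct
Sult1d1, chr5:87568957-87569256, minus strand: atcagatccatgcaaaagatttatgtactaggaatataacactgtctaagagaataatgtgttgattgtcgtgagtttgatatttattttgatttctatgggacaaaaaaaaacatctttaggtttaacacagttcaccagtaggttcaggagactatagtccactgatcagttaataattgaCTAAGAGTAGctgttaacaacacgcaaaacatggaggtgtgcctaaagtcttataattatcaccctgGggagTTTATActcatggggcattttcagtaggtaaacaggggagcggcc

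Motifs were searched on both strands, and a gene with several windows was counted when any of them matched. The HNF4 motif CAAAGTCCA was in none of the 32 genes with a window and in 0.542% of the 18434 tested genes with a window. The loose MEF2 pattern fixed only its outer letters and allowed any base at its inner positions. It matched in Inka2 and Sult1d1 and in 4.13% of all. The inner letters of both marked matches include G, and a stricter MEF2 motif was not searched. These matches are therefore not shown to be MEF2 sites, and the share is that of the loose pattern only. The letters TTCAGCACC from the element bound by the neuronal repressor REST were in none of the 32 genes and in 0.494% of all. The letters TATAAA were in 1 of 7 genes higher (Inka2) and in 4 of 25 genes lower (G6pc, Sult1d1, Cyp2j5 and Errfi1), against 14.5% of all, and these matches overlap none of the others. The median GC content was 64.3% for genes higher and 51.3% for genes lower in brain and heart, against 56.3% for all genes with a window, and the median number of CpG pairs was 18, 4 and 13. Matches are descriptions of these letters only.

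**Figure D1:**
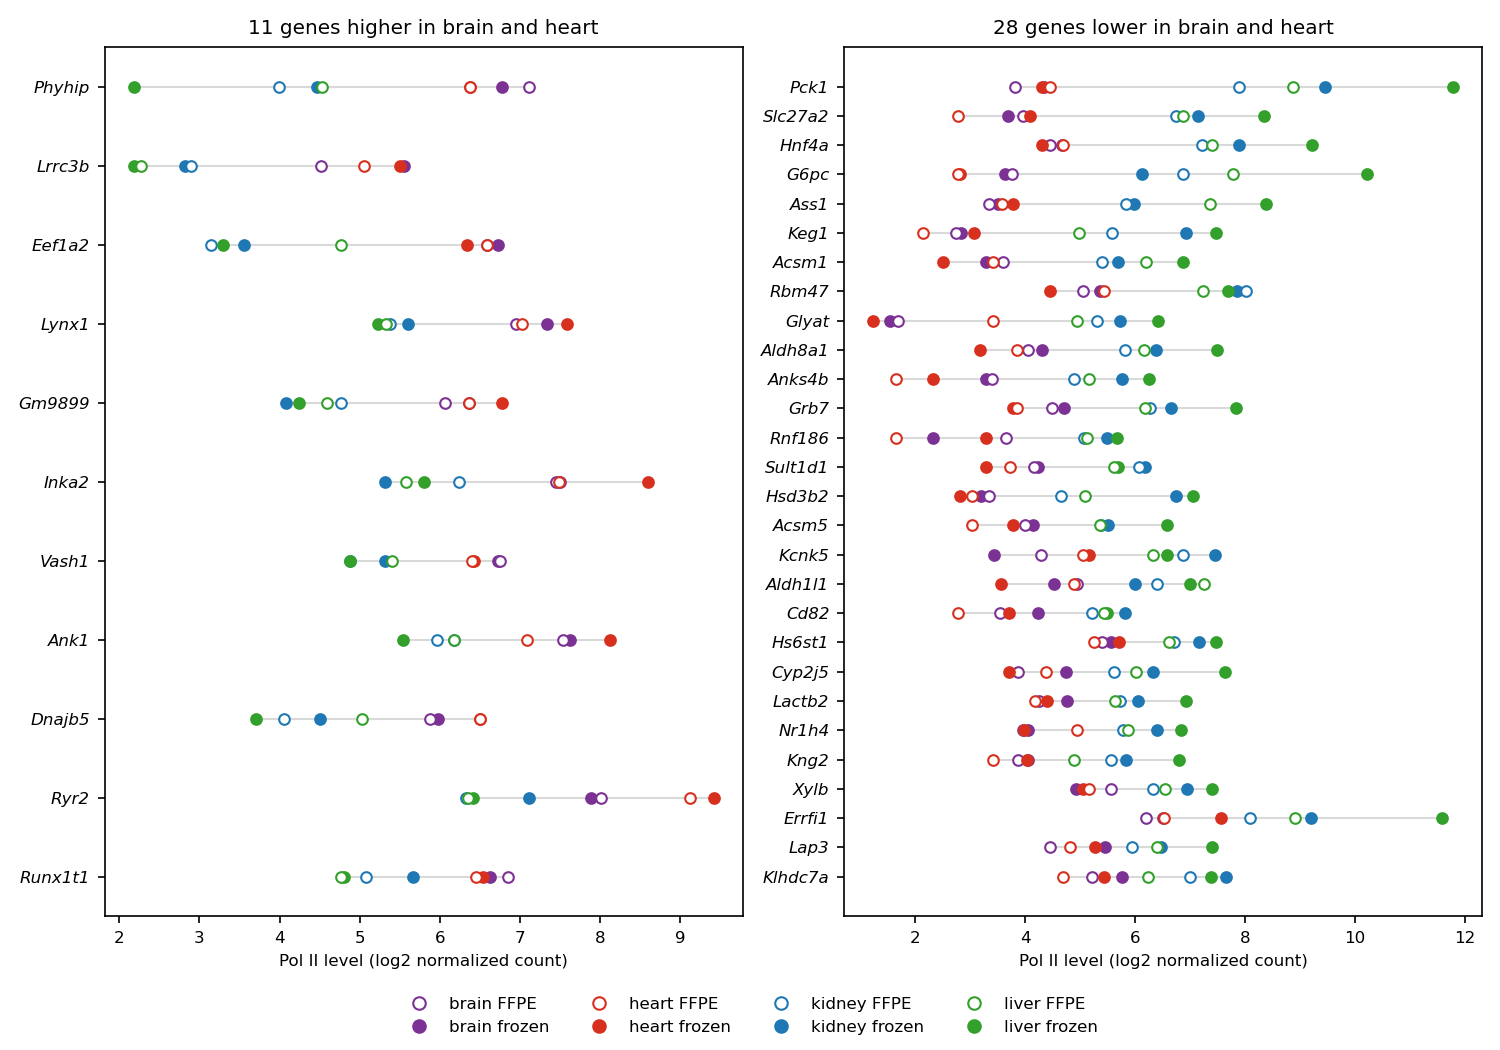
Pol II level (log2 normalized count) of 39 of the 45 genes in each of the 8 profiles, with 11 genes higher in brain and heart on the left and 28 genes lower in brain and heart on the right, ordered by the gap between the sides. Purple and red points (brain and heart) lie apart from blue and green points (kidney and liver) in each row, with filled points for frozen and open points for FFPE tissue; the widest gap is that of Pck1, 3.42.

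Genes higher in brain and heart are described first, all 13 with differences between 1.46 and 2.87 (log2, median 1.97) where the median of all tested genes was 0.01. The genes named here include genes of translation, calcium release and membrane anchoring. Eef1a2, which encodes the elongation factor 1 alpha isoform of neurons and muscle, had 6.59 in FFPE brain, 6.59 in FFPE heart, 6.72 in frozen brain and 6.34 in frozen heart, against 3.15 in FFPE kidney, 4.77 in FFPE liver, 3.55 in frozen kidney and 3.30 in frozen liver. All 4 brain and heart profiles lay within a narrow band, and FFPE liver was the highest of the other side. Its mean was 6.56 ± 0.16 in brain and heart and 3.69 ± 0.74 in kidney and liver (SD, n = 4 profiles each), a difference of 2.87 ± 0.35 (SE) or 7.29-fold (limma, adjusted p = 0.00936). The 4 brain and heart profiles held 591 reads of Eef1a2 (chromosome 2, 181141758 to 181157015) and the 4 kidney and liver profiles 77.

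Ryr2, the calcium release channel of the cardiac sarcoplasmic reticulum that is also expressed in neurons, had 8.02 in FFPE brain, 9.12 in FFPE heart, 7.89 in frozen brain and 9.42 in frozen heart, against 6.33 in FFPE kidney, 6.36 in FFPE liver, 7.11 in frozen kidney and 6.42 in frozen liver. Heart was above brain, by 1.31 on average, and frozen kidney came closest to brain. Ryr2 differed by 2.06 ± 0.35 (limma, adjusted p = 0.0469) and covers 553.8 kb (chromosome 13, 11553099 to 12106945), the longest of the 45 genes.

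Lynx1, a membrane-anchored modulator of nicotinic acetylcholine receptors, had 6.95 in FFPE brain, 7.02 in FFPE heart, 7.34 in frozen brain and 7.59 in frozen heart, against 5.37 in FFPE kidney, 5.33 in FFPE liver, 5.61 in frozen kidney and 5.23 in frozen liver. Its profiles varied little on each side, and the difference of 1.84 ± 0.23 had the same adjusted p as Eef1a2 (limma, adjusted p = 0.00936). Ank1, an ankyrin that ties membrane proteins to spectrin, ranged from 7.09 to 8.13 in brain and heart and from 5.54 to 6.18 in kidney and liver, a difference of 1.63 ± 0.27. Mir486 lies within Ank1, and reads of overlapping genes cannot be separated here.

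Among the remaining genes, Phyhip, which encodes a protein that binds phytanoyl-CoA hydroxylase, had the widest gap. It stood at 7.11 in FFPE brain, 6.38 in FFPE heart, 6.77 in frozen brain and 6.38 in frozen heart, against 4.00 in FFPE kidney, 4.53 in FFPE liver, 4.47 in frozen kidney and 2.18 in frozen liver. Frozen liver was far below the other kidney and liver profiles, and the difference was 2.87 ± 0.44 (limma, adjusted p = 0.0269). Lrrc3b, a leucine-rich repeat membrane protein gene, followed with 2.62 ± 0.38, from 4.52 to 5.56 in brain and heart and from 2.18 to 2.90 in kidney and liver. Gm9899 (1.97 ± 0.28) overlaps Kcnk3, a background potassium channel gene whose own difference was 1.73 ± 0.34 without overlap between the sides but not called (limma, adjusted p = 0.0775), so these values are not separate measurements.

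Inka2, an inhibitor of a p21-activated kinase, differed by 2.03 ± 0.31 and was highest in frozen heart, at 8.60, where the other brain and heart profiles had 7.46 to 7.50. Dnajb5, a cochaperone of heat shock proteins, differed by 1.89 ± 0.33, from 5.88 to 6.51 in brain and heart and from 3.71 to 5.03 in kidney and liver. The transcriptional corepressor gene Runx1t1 differed by 1.54 ± 0.27 and Vash1, a tubulin carboxypeptidase, by 1.46 ± 0.25, the smallest difference of the 13. Heart was above brain in 8 of the 13 genes and brain above heart in 5, and kidney was above liver in 10.

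Genes lower in brain and heart numbered 32, all protein coding, with differences from -5.27 to -1.50 (median -2.57). Of these, 16 stand on the lists for gluconeogenesis and fructose, fatty acid oxidation, amino acid or xenobiotic metabolism, 3 on that for hepatorenal transcription factors, 1 on that for apical receptors, peptidases and plasma proteins, and 12 on no list. Pck1, the phosphoenolpyruvate carboxykinase that commits carbon to glucose synthesis, had 3.81 in FFPE brain, 4.46 in FFPE heart, 4.34 in frozen brain and 4.31 in frozen heart, against 7.88 in FFPE kidney, 8.88 in FFPE liver, 9.46 in frozen kidney and 11.78 in frozen liver. The brain and heart profiles lay close together, whereas frozen liver stood far above all others. Pck1 averaged 4.23 ± 0.29 in brain and heart and 9.50 ± 1.65 in kidney and liver (SD, n = 4 profiles each), a difference of -5.27 ± 0.51 (SE; limma, adjusted p = 0.00236), the largest among all tested genes in either direction. It held 112 reads over the brain and heart profiles and 8712 over the kidney and liver profiles (chromosome 2, 173153073 to 173159274).

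G6pc, the glucose-6-phosphatase that releases free glucose, had 3.76 in FFPE brain, 2.79 in FFPE heart, 3.63 in frozen brain and 2.82 in frozen heart, against 6.87 in FFPE kidney, 7.78 in FFPE liver, 6.12 in frozen kidney and 10.22 in frozen liver. Liver exceeded kidney by 2.50 on average, and the difference between the sides was -4.50 ± 0.67 (limma, adjusted p = 0.0260; chromosome 11, 101367716 to 101377903). Xylb, xylulokinase, differed by -1.63 ± 0.28.

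Of the transcription factors, Hnf4a, a nuclear receptor that drives hepatocyte and proximal tubule genes, had 4.45 in FFPE brain, 4.69 in FFPE heart, 4.68 in frozen brain and 4.31 in frozen heart, against 7.22 in FFPE kidney, 7.40 in FFPE liver, 7.89 in frozen kidney and 9.21 in frozen liver. The 4 brain and heart profiles spanned less than the distance to the nearest kidney profile, and the difference was -3.40 ± 0.34 (limma, adjusted p = 0.00255; chromosome 2, 163506811 to 163572907). Nr1h4, the bile acid receptor FXR, differed by -1.99 ± 0.33, with FFPE heart at 4.94 and the other brain and heart profiles at 3.96 to 4.05. Rbm47, an RNA-binding protein of endoderm-derived and kidney epithelia that works with the APOBEC1 editing enzyme, had 5.06 in FFPE brain, 5.44 in FFPE heart, 5.35 in frozen brain and 4.45 in frozen heart, against 8.02 in FFPE kidney, 7.24 in FFPE liver, 7.85 in frozen kidney and 7.68 in frozen liver. Its kidney and liver profiles lay close together, and the difference was -2.62 ± 0.28 (limma, adjusted p = 0.00307).

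Fatty acid activation was represented by Slc27a2, a fatty acid transport protein that also acts as a very long chain acyl-CoA synthetase, and by Acsm1 and Acsm5, medium-chain acyl-CoA synthetases. Slc27a2 had 3.96 in FFPE brain, 2.79 in FFPE heart, 3.69 in frozen brain and 4.10 in frozen heart, against 6.75 in FFPE kidney, 6.88 in FFPE liver, 7.14 in frozen kidney and 8.34 in frozen liver. FFPE heart was lowest and frozen liver highest, with a difference of -3.64 ± 0.34 (limma, adjusted p = 0.00236; chromosome 2, 126553024 to 126588243). Acsm1 differed by -2.84 ± 0.39 and Acsm5 by -1.97 ± 0.34; they lie 74.4 kb apart on chromosome 7. Acsm5 overlaps Pdilt, which had a difference of -1.35 ± 0.38 and was not called (limma, adjusted p = 0.235).

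Amino acid and conjugation enzymes formed the next group. Ass1, argininosuccinate synthase of the urea cycle and of arginine synthesis in the kidney, had 3.34 in FFPE brain, 3.58 in FFPE heart, 3.50 in frozen brain and 3.78 in frozen heart, against 5.83 in FFPE kidney, 7.35 in FFPE liver, 5.99 in frozen kidney and 8.39 in frozen liver. Liver lay above kidney, with a difference of -3.34 ± 0.48 (limma, adjusted p = 0.0235). Keg1, a glycine N-acyltransferase-like gene, had 2.73 in FFPE brain, 2.14 in FFPE heart, 2.83 in frozen brain and 3.07 in frozen heart, against 5.58 in FFPE kidney, 4.98 in FFPE liver, 6.92 in frozen kidney and 7.48 in frozen liver. Both preservations showed the gap, wider in frozen tissue, and the difference was -3.55 ± 0.38 (limma, adjusted p = 0.00307). Its neighbour Glyat, glycine N-acyltransferase, lies 44.1 kb away on chromosome 19 and differed by -3.63 ± 0.53, on 22 reads in brain and heart and 344 in kidney and liver. Aldh1l1, an enzyme of folate metabolism, differed by -2.18 ± 0.33 and Lap3, leucine aminopeptidase, by -1.55 ± 0.27.

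Xenobiotic, steroid and related enzymes included Aldh8a1, an aldehyde dehydrogenase of the kynurenine pathway (-2.61 ± 0.37), the sulfotransferase gene Sult1d1 (-2.04 ± 0.32), Hsd3b2, a steroid dehydrogenase (-2.78 ± 0.43), and Cyp2j5, a cytochrome P450 (-2.23 ± 0.38). Hsd3b2, Cyp2j5 and Kng2 belong to families of similar neighbouring genes, so how reads were shared among copies is uncertain.

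Among the genes on no list were Anks4b, a scaffold of brush border microvilli (-2.85 ± 0.44), Kcnk5, a background potassium channel (-2.32 ± 0.40), the tetraspanin gene Cd82 (-1.93 ± 0.32), Hs6st1, a heparan sulfate sulfotransferase (-1.50 ± 0.22), and Grb7, an adaptor of receptor tyrosine kinases (-2.52 ± 0.35), which overlaps Mien1 (-0.66 ± 0.41, not called). Kcnk5 was a potassium channel gene with less Pol II in the excitable organs, at 3.43 to 5.17 in brain and heart and 6.32 to 7.45 in kidney and liver. Errfi1, a feedback inhibitor of the EGF receptor, had 6.20 in FFPE brain, 6.53 in FFPE heart, 6.51 in frozen brain and 7.56 in frozen heart, against 8.09 in FFPE kidney, 8.91 in FFPE liver, 9.20 in frozen kidney and 11.59 in frozen liver. Frozen liver stood apart at the top and frozen heart was the closest of brain and heart, with a difference of -2.75 ± 0.47 (limma, adjusted p = 0.0475). Other genes lower in brain and heart were Kng2, a kininogen (-1.93 ± 0.33), Rnf186, a ubiquitin ligase (-2.61 ± 0.45), Lactb2, a mitochondrial ribonuclease (-1.68 ± 0.28), and Klhdc7a (-1.79 ± 0.26). Liver was above kidney in 25 of the 32 genes and brain above heart in 21.

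**Figure D2:**
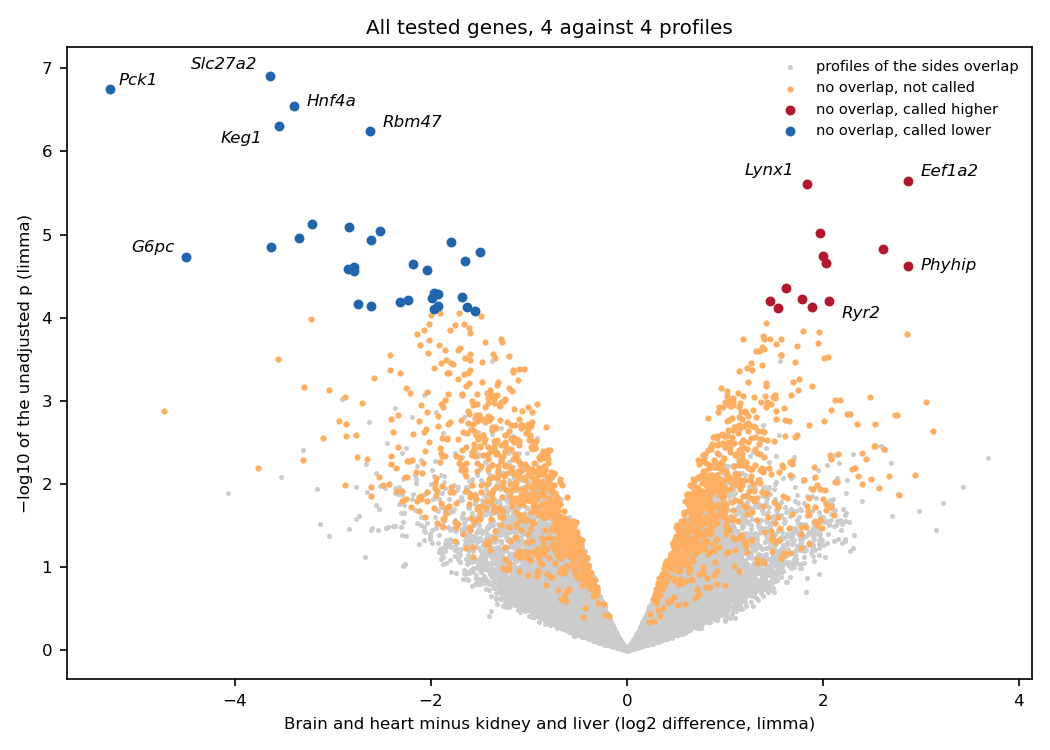
Log2 difference (brain and heart minus kidney and liver) on the horizontal axis against −log10 of the unadjusted limma p on the vertical axis for 26758 genes, with 4 profiles on each side. The 13 genes called higher (red) and 32 called lower (blue) lie above the genes that did not overlap but were not called (orange), and Pck1 is the point furthest to the left, at -5.27.

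Many more genes separated the sides than passed the test. Without regard to the call, 758 genes (2.83% of those tested) were higher and 830 (3.1%) were lower in brain and heart in every profile, 5.93% together. At an unadjusted p below 0.05, limma counted 1287 genes higher and 1334 lower. With 2 organs on each side, differences among single organs can also part the sides. How many genes they part was not tested, so these counts are descriptions only. Just inside the threshold were Dnajb5 (adjusted p = 0.0475) and Lap3 (adjusted p = 0.0491), and just outside it were Nudt3 (1.42 ± 0.26, adjusted p = 0.0607) among genes higher and Pawr (-1.71 ± 0.30, adjusted p = 0.0505), Sord (-1.91 ± 0.34, adjusted p = 0.0505) and Slc37a4 (mean 4.97 in brain and heart and 6.97 in kidney and liver, adjusted p = 0.0520) among genes lower (all limma). Slc37a4 carries glucose-6-phosphate to the phosphatase encoded by G6pc, and Sord is sorbitol dehydrogenase. The count depended on single profiles. Without frozen heart 0 genes were called higher and 5 lower, without FFPE liver 1 and 5, without FFPE heart 2 and 8, without frozen brain 3 and 8, without FFPE kidney 5 and 11, without frozen liver 5 and 16, without frozen kidney 6 and 15, and without FFPE brain 6 and 16. Pck1, Slc27a2, Hnf4a, Keg1 and Rbm47 were called with each of the 8 profiles left out, and Eef1a2 with 7 of them.

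With the organ as the unit, 2 organs against 2, limma called 0 genes, and the smallest adjusted p was 0.114. At an unadjusted p below 0.05 in this fit, 573 genes were higher and 739 lower, 1312 of the 26758 tested. That is no more than a 0.05 share, which no difference at all would give. All 45 were among them, but they were chosen from these same values, so this adds no support. An exact two-sided permutation test cannot go below 0.333 with 2 organs against 2, or below 0.0286 with 4 profiles against 4. With organ as a random block (within-organ correlation 0.246), 4 genes were called higher and 14 lower.

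Whether the difference between the sides depended on how the tissue was kept was tested by an interaction term. limma called 0 genes (0.0% of those tested), with 383 at an unadjusted p below 0.05, among them Pck1, Glyat and Hsd3b2. The difference of Pck1 was -4.24 in FFPE and -6.29 in frozen tissue, of Glyat -2.57 in FFPE and -4.69 in frozen tissue and of Hsd3b2 -1.68 in FFPE and -3.88 in frozen tissue. Among genes higher in brain and heart the median difference was 1.73 in FFPE and 2.14 in frozen tissue, and 11 of 13 had the smaller one in FFPE. Among genes lower, the medians were -2.09 in FFPE and -2.82 in frozen tissue, and 30 of 32 had the smaller one in FFPE. Cd82 (-2.17 in FFPE and -1.69 in frozen tissue) had the larger one there. Over all tested genes, 13710 of 26758 had the larger absolute difference in frozen tissue. FFPE heart and FFPE liver were the profiles with the fewest reads, 1 on each side, and the part of depth in these differences was not tested.

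**Figure D3:**
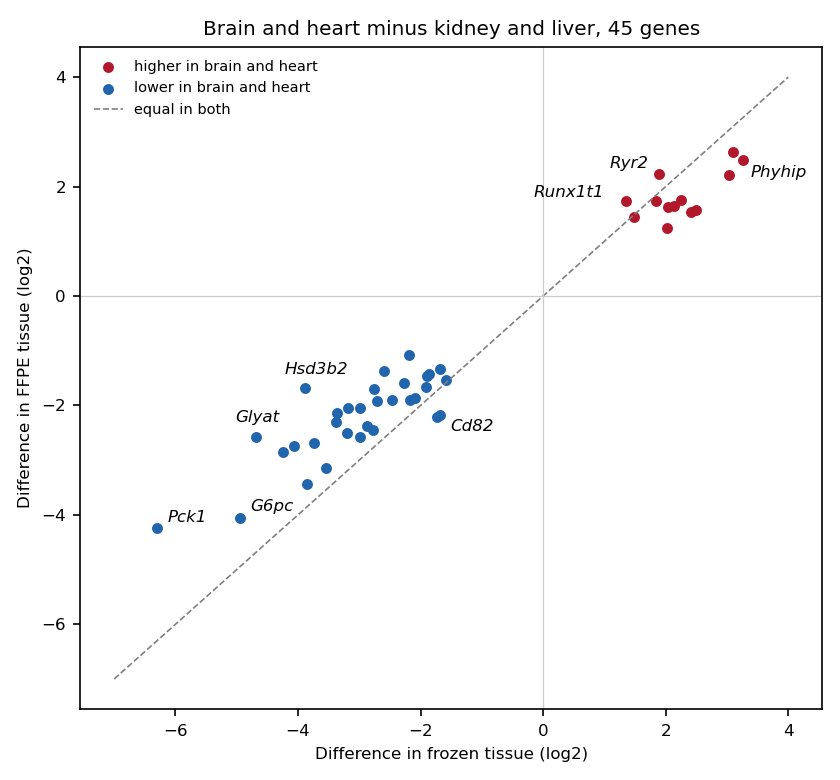
Difference between brain and heart and kidney and liver (log2) in frozen tissue on the horizontal axis and in FFPE tissue on the vertical axis for the 45 genes, red for genes higher and blue for genes lower in brain and heart, with a dashed line of equality. Of the 32 blue points 30 lie above the line, where the difference in FFPE tissue is the smaller one, and Pck1 lies at -4.24 in FFPE and -6.29 in frozen tissue.

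The genes were then set beside their close relatives in 11 families. Each family was chosen after values were seen and includes a gene already called, so a called member in each follows from the choice. In most families no further member was called. Eef1a2 differed by 2.87 ± 0.35 and the widely expressed Eef1a1 by -0.46 ± 0.29. Ryr2 stood beside the skeletal muscle channel Ryr1 (0.01 ± 0.24) and Ryr3 (0.27 ± 0.26). Of the ankyrins, Ank2 (1.51 ± 0.35) did not overlap between the sides but was not called, and Ank3 (0.13 ± 0.34) overlapped.

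On the other side, Pck1 stood beside Pck2, the mitochondrial form, whose profiles did not overlap and were higher in brain and heart (0.87 ± 0.30, limma, adjusted p = 0.342, not called). G6pc stood beside G6pc3, the widely expressed form, also without overlap and higher in brain and heart (1.14 ± 0.29, limma, adjusted p = 0.184, not called). The third member, G6pc2, went the way of G6pc (-1.31 ± 0.65) but overlapped and was not called. It averaged 6.04 in liver and 3.26 in kidney. Hnf4g had -0.19 ± 0.39 beside Hnf4a. The other 5 fatty acid transport protein genes lay between -1.08 ± 0.57 (Slc27a5) and 0.14 ± 0.30 (Slc27a1), all overlapping. The medium-chain synthetases had 2 called members, with Acsm2 (-2.39 ± 0.63) and Acsm3 (-1.66 ± 0.35) not overlapping but not called and Acsm4 (-0.55 ± 0.34) overlapping. Whether these differences within families exceed each other was not tested.

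**Figure D4:**
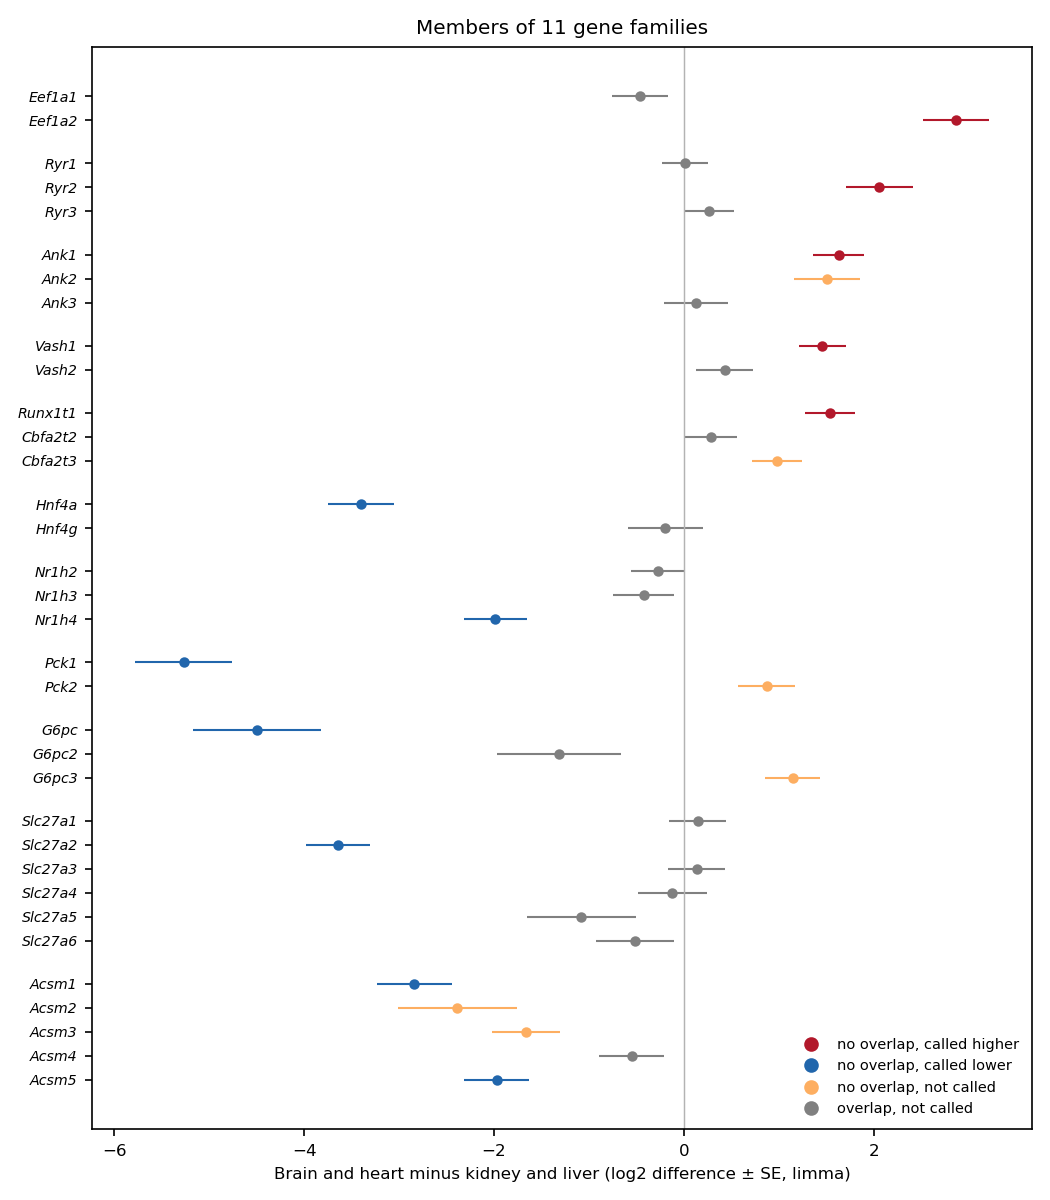
Log2 difference (brain and heart minus kidney and liver) with its limma SE for the members of 11 gene families, grouped by family, 4 profiles on each side. In the carboxykinase and glucose-6-phosphatase families the called genes Pck1 (-5.27) and G6pc (-4.50) lie left of 0 and Pck2 (0.87) and G6pc3 (1.14) right of it. G6pc2 (-1.31, overlapping and not called) also lies left of 0.

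Lists of genes for the functions of both sides put the 45 in context. They were chosen with earlier results of these data known, so their shares are descriptions and no independent test. Over 7 lists of excitable-cell functions, 42 of 295 tested genes (14.2%) did not overlap and were higher in brain and heart and 1 was lower, against 2.83% and 3.1% of all tested genes. The test called 3 of the 295 higher, Ank1 and Ryr2 among them, where it called 0.0486% of all tested genes higher. The median difference was 0.57, against 0.01 over all genes. Channels for sodium and potassium had 6 of 59 members without overlap and higher, 0 called, led by the metabolic potassium channel subunit Kcnj11 (2.48 ± 0.57) and the G protein-gated channel subunit Kcnj3 (2.12 ± 0.50). Brain was highest in both preservations in 32 of the 59 and heart in 10. Their medians in FFPE and frozen heart, 4.94 and 5.08, were near 4.96 in frozen kidney and 4.88 in FFPE liver. Heart led other lists, such as energy isozymes, highest in 14 of 31 against 7 for brain. Calcium handling had 7 of 58, with 1 called (Ryr2) and with the reticulum protein Hrc (1.71 ± 0.46) among those not called. Energy isozymes had 4 of 31, with 1 called and the adenine nucleotide carrier Slc25a4 (2.01 ± 0.51) not called.

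Adrenergic and cAMP signalling had 7 of 41, none called, with Rgs4, a brake on G protein signalling, at 1.57 ± 0.31. Ankyrin, spectrin and dystrophin genes had 9 of 47, with Ank1 called and the Z-disc protein gene Actn2 (2.12 ± 0.69) not called. Of the MEF2 and activity-dependent regulators, 6 of 30 were higher, none called, with the cofactor Zfpm2 at 1.40 ± 0.27, and Rest, the repressor of neuronal genes, was lower in every brain and heart profile (-0.81 ± 0.23, limma, adjusted p = 0.241, not called). RNA-binding proteins of neurons and muscle had 3 of 29, none called, with the splicing regulator Rbm24 at 2.35 ± 0.60. The medians of these lists lay between 0.27 and 0.74.

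Over 8 lists of epithelial functions, 142 of 494 tested genes (28.7%) did not overlap and were lower in brain and heart and 2 were higher, those being Pck2 and G6pc3. This compares with 3.1% lower and 2.83% higher among all tested genes. The test called 20 of the 494 lower, where it called 0.12% of all tested genes lower, and the median difference was -1.02. Gluconeogenesis and fructose metabolism had 15 of 32 members lower without overlap (46.9%), 4 called, and fructose bisphosphatase Fbp1 stood at -2.41 ± 0.51 without a call. Peroxisomal and fatty acid oxidation genes had 19 of 48 (39.6%), 3 called. Amino acid catabolism had 25 of 76 (32.9%), 5 called, and xenobiotic and steroid metabolism 27 of 85 (31.8%), 4 called. Liver led both lists, highest in both preservations in 54 of the 76 and 60 of the 85 genes, and kidney in 5 and 10. Medians of the amino acid list were 5.83 in FFPE liver and 6.71 in frozen liver. They were 4.88 in FFPE kidney and 5.04 in frozen kidney, and 4.42 to 4.52 in brain and heart. Of the 8 lists, only junction and keratin genes were led by kidney, with 18 of 54 against 12 in liver. Tyrosine aminotransferase Tat (-3.04 ± 1.35) had a large difference but overlapping profiles, with 9.19 in FFPE liver and 11.44 in frozen liver but 3.93 and 4.08 in FFPE and frozen kidney.

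Transporters had 21 of 84 (25%), 0 called, apical receptors, peptidases and plasma proteins 16 of 73 (21.9%), 1 called, junction and keratin genes 12 of 54 (22.2%), 0 called, and hepatorenal transcription factors 8 of 43 (18.6%), 3 called. E-cadherin, Cdh1, the adhesion molecule of epithelial junctions, stood at -1.60 ± 0.34 and was not called (limma, adjusted p = 0.101). The kidney-enriched factor Tfcp2l1 was at -1.83 ± 0.50, not called. Of the lists for other cell types, endothelium had 0 of 12 members without overlap (median 0.19), fibroblasts 0 of 8 (0.17), smooth muscle and pericytes 0 of 9 (0.37), immune cells 1 of 13 (0.02) and adipocytes 0 of 7 (0.20). Astrocytes had 1 of 10 and skeletal muscle 1 of 10, both higher in brain and heart, and cholangiocytes 3 of 7 and exocrine pancreas and gut 1 of 8, all lower there. Oligodendrocytes had 0 of 10, podocytes 0 of 5, erythroid cells 0 of 6 and distal nephron 0 of 12. Of the 45 genes, Ryr2 is also on the cardiomyocyte list and Slc27a2 on the proximal tubule list. Summed levels of the endothelial list were 364.7 to 1432 in brain and heart and 563.2 to 786.8 in kidney and liver (sums of normalized counts on the linear scale), and their part in the results was not tested. Immediate early genes had 3 of 23 members higher without overlap and heat shock genes 0 of 14, none called. Among all tested genes, 2.83% were higher and 3.1% lower without overlap. The cell type and stress lists are too small to read their counts as results about a cell type or response.

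**Figure D5:**
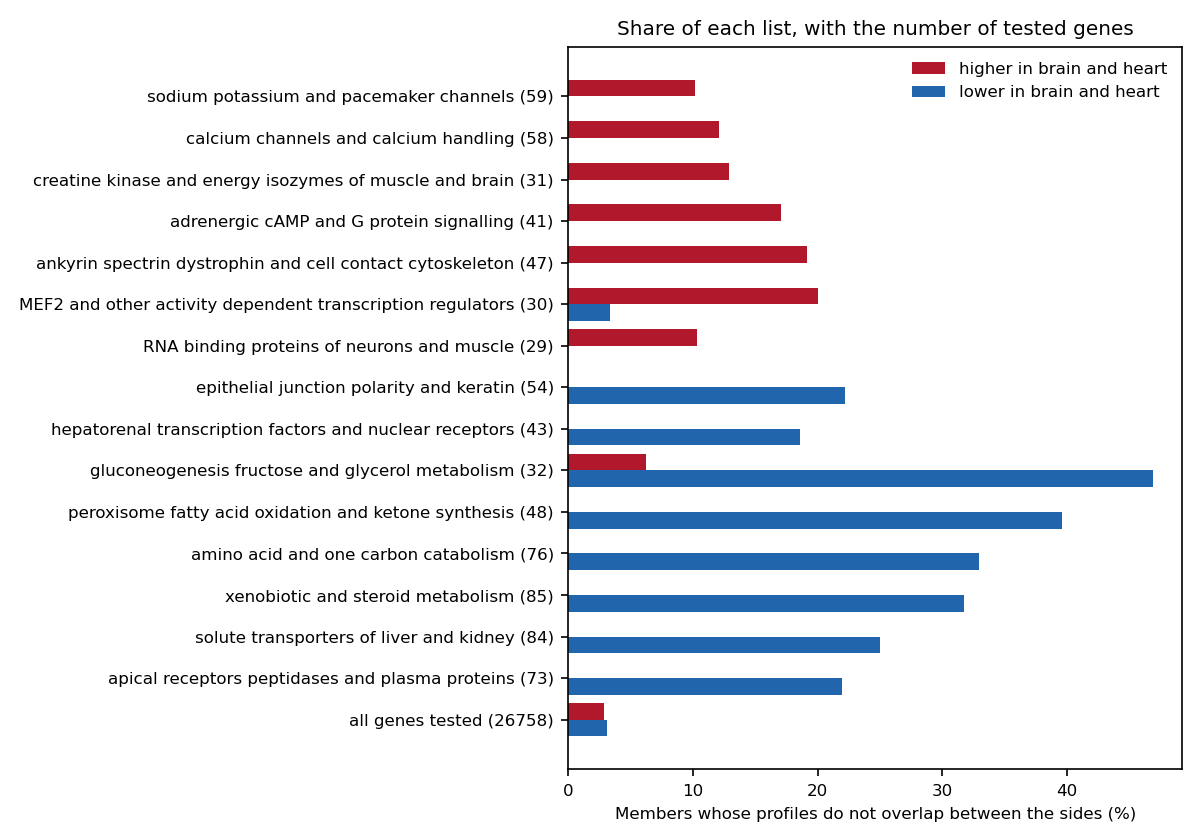
Share of tested members (percent, horizontal axis) whose profiles did not overlap between the sides, for 7 lists of excitable-cell functions, 8 lists of epithelial functions and all tested genes, with the number of tested members in parentheses; red bars count genes higher and blue bars genes lower in brain and heart. The longest bar is gluconeogenesis with 46.9% lower, and the bars of all genes are 2.83% higher and 3.1% lower.

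The median length of the 45 genes was 17.0 kb for genes higher and 29.4 kb for genes lower in brain and heart, against 14.7 kb for all tested genes. Because reads were counted over whole genes and the deposited values are not per length, levels of different genes were not compared.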

How the data were processed

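Pol II occupancy was measured by chromatin immunoprecipitation and sequencing in mouse brain, heart, kidney and liver. The submitters' processing notes name Bowtie2, mm10, featureCounts and limma; no source used here gives their versions or the strand setting of the counting. The table deposited by the authors holds log2 values of 27179 genes in 8 profiles. After removal of the 0.5 added reads, 100% of values were whole read numbers (relative tolerance 1e-06), which fixes the depth at 864816 to 2178329 reads per profile and the precision of genes with few reads. Gene identifiers matched RefSeq for 93.0% of rows.

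Tested were the 26758 genes that reached a log2 value of 0 in 2 or more profiles. With limma 3.58.1 (R 4.3.3), a model with trended empirical Bayes variances (5 residual degrees of freedom, 7.50 prior) was fitted with side and preservation as terms, and p-values were Benjamini-Hochberg adjusted over all tested genes with a threshold of 0.05. No count model was run on the recovered reads; voom weights on them were an alternative. A further fit added the interaction of side and preservation. Alternatives changed the unit, the block, the filter, the scaling and the profiles used.

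The members and the 34 gene lists were chosen with earlier results of these data known, and the families after values were seen. Of 1002 listed genes, 2 were not matched. Named were the 12 genes per direction with the widest gap and a mean log2 value of at least 2, and per list up to 4 called members and 2 others with the largest difference. The remaining called genes, the genes next to the threshold, overlapping genes, relatives and the genes under other observations were named after their values were seen, as were Rest, Pck2, G6pc3 and Cdh1. Input libraries were not analysed here. Some named genes of the rule and lists are not reported here; they remain in all counts, medians and tests.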

Additional observations from a re-analysis of the deposited data

Results flagged for a closer look

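In 90 groups of 4 profiles (45 genes on 2 sides), 4 held a profile set apart from the other 3 by a gap test at the 95% level; chance flags about 1 in 20 groups. Inka2 had 8.60 in frozen heart among brain and heart. Ryr2 had 7.11 in frozen kidney, Acsm5 had 6.59 in frozen liver, both among kidney and liver. Nr1h4 had 4.94 in FFPE heart among brain and heart. Inka2, Ryr2 and Nr1h4 were each called with 1 of the 8 profiles left out and Acsm5 with none; their part in the calls beyond that was not tested.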

How the results depend on the processing

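None of the 45 genes changed direction in any setting, but the rule on non-overlap fixes most of that. All 45 were called with organ and preservation as fixed terms (343 genes called higher and 442 lower, because the spread between organs of a side leaves the residual) and with quantile normalization (52 lower). Fewer were called with no filter (8 higher and 20 lower), a stricter filter (8 and 21), added reads in proportion to depth (8 and 20), voom weights (8 and 14), scaling to silent receptors (5 and 18) and organ as a random block (4 and 14); the cause was not tested. Leaving out mitochondrial genes and rescaling gave 9 higher and 33 lower, with 38 of the 45 still called. Without the preservation block the counts were 17 and 36, with 40 of the 45 still called. With the organ as the unit 0 and 0 were called. Frozen profiles alone gave 0 and 0 and FFPE profiles alone 0 and 1, with 2 profiles on each side. In frozen tissue 474 were higher and 670 lower at an unadjusted p below 0.05 (limma), in FFPE tissue 634 and 614. In either tissue, both directions together are fewer than a 0.05 share of the genes tested, which no difference at all would give. Leaving out 1 profile gave 0 to 6 higher and 5 to 16 lower. Leaving out FFPE heart and FFPE kidney, a setting chosen after seeing the data, gave 0 and 4, and counting genes without overlap and without the call, chosen likewise, gave 758 and 830. The interaction of side and preservation called 0 genes in every setting run, with 232 to 999 at an unadjusted p below 0.05. These were always fewer than a 0.05 share of the genes tested. No scaling moved the median difference of all genes by more than 0.1. Depth limits genes with few reads, such as Glyat with 22 reads in brain and heart. No paired analysis was possible because the columns carry no replicate number.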

Other observations

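Genes that separated the sides widely without being called were found in both directions. Lysmd2 was higher in every brain and heart profile by 1.96 ± 0.36 (SE; limma, adjusted p = 0.0668), with 4.69 to 5.26 in brain and heart and 2.31 to 3.35 in kidney and liver. Acta1, the skeletal muscle actin gene, was higher by 2.86 ± 0.54 (limma, adjusted p = 0.0675), with 4.94 to 7.05 in brain and heart and 1.79 to 3.84 in kidney and liver. Mettl7b was lower in every brain and heart profile, with a difference of -3.22 ± 0.58 (limma, adjusted p = 0.0561), with 2.12 to 2.79 in brain and heart and 4.73 to 7.82 in kidney and liver. Speg, a striated muscle kinase gene, had 7.99 to 8.39 in brain and heart and 5.27 to 7.02 in kidney and liver, a difference of 1.79 ± 0.33 (limma, adjusted p = 0.0660).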
